A study of Homo sapiens with 18 samples.

Results

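The transcripts of 8 genes that carry or target DNA methylation were followed with microarrays in CAL27 and in HSC-3, which are established human cell lines of oral squamous cell carcinoma (OSCC). The genes were HELLS, CDCA7, CDCA7L, ZBTB24, DNMT1, UHRF1, DNMT3A and DNMT3B, chosen by name for their role with earlier results of these data known. Each was matched to its probeset by Entrez number among the 23786 probesets of the table. All 8 had a probeset, and all 8 passed the intensity filter, for which 1 array of the set with a value over that array's median was enough. There were 18 arrays in 6 groups of 3. CAL27 and HSC-3 cells were treated with 10 µM ICG-001, a compound that keeps β-catenin from its coactivator CBP, or with the vehicle, 0.1% DMSO. HSC-3 cells were transfected with a 25 nM pool of siRNAs against CTNNB1, which encodes β-catenin, or with a non-targeting pool as control siRNA. The sample records give 48 to 64 h to RNA for all groups, while the study's methods give 48 h for the knockdown. The 3 replicates of a group were separate wells of cells of the same line, and nothing states that they came from separate cultures, so each p reflects only how far such wells differ. The genes lie at chr10 (HELLS), chr2 (CDCA7 and DNMT3A), chr7 (CDCA7L), chr6 (ZBTB24), chr19 (DNMT1 and UHRF1) and chr20 (DNMT3B). Each line is 1 tumor's cells in culture, and the 12 ICG-001 arrays and the 6 siRNA arrays were normalized apart, so no level was compared between these sets.

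DNA methylation is copied at each round of replication. UHRF1 recognizes the CpG sites that carry the mark on the old strand alone and recruits DNMT1, the maintenance methyltransferase, which marks the new strand. DNMT3A and DNMT3B are the de novo methyltransferases, which mark sites that had no methylation. HELLS is a chromatin remodeler of the SNF2 family that opens nucleosomal DNA to these enzymes, and CDCA7 is the zinc finger protein that binds HELLS and activates it. Inherited loss of DNMT3B, ZBTB24, CDCA7 or HELLS causes the immunodeficiency, centromeric instability and facial anomalies (ICF) syndrome, in which satellite repeats lose methylation. ZBTB24 is a transcription factor that activates CDCA7 in human cells, and CDCA7L is a paralog of CDCA7 known for binding MYC.

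Promoters of the 8 genes are shown because several of the genes moved together below. The sequences are those of RefSeq on GRCh38.p14, from 250 bases before to 50 bases after the start of transcription, 5′ to 3′ on the strand of the gene. The sources used here do not give the build behind the arrays. The 8 genes had 15 such promoters, 6 of them of DNMT3A and 3 of UHRF1. Capitals mark an E2F motif on either strand, spelled TTTCGCGC or TTTGGCGC, or TTTCCCGC or TTTGCCGC in a wider search that was added after the promoters had been read. The 4 genes with a match are shown, with CDCA7L for comparison with its paralog. HELLS lies at chr10:94545538-94545837 on the plus strand, CDCA7 at chr2:173354622-173354921 on the plus strand, CDCA7L at chr7:21945850-21946149 on the minus strand, DNMT1 at chr19:10194904-10195203 on the minus strand, and the first of the UHRF1 promoters at chr19:4909251-4909550 on the plus strand.
HELLS: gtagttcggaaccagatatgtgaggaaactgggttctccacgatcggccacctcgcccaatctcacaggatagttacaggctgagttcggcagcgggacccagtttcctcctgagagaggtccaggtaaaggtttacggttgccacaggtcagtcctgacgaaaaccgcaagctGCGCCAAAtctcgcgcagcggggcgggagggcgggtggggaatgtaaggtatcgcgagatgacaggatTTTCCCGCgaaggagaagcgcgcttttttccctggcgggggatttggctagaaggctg
CDCA7: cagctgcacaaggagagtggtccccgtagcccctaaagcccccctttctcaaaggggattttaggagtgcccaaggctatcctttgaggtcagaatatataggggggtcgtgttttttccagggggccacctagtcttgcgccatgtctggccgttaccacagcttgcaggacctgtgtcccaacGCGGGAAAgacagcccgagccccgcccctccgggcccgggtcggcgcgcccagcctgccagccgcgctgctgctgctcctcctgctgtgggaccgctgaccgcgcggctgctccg
CDCA7L: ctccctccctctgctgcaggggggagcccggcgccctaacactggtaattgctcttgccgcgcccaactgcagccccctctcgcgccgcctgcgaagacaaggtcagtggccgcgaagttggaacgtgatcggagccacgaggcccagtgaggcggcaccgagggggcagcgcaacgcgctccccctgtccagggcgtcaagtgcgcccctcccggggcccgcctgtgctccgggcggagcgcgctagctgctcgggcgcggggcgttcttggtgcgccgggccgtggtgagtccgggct
DNMT1: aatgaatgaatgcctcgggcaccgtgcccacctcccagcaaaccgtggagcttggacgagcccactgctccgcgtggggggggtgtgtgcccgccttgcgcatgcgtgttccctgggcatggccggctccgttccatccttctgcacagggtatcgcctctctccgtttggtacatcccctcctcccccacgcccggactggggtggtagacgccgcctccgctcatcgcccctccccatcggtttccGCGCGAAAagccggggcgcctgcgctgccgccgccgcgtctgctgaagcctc
UHRF1: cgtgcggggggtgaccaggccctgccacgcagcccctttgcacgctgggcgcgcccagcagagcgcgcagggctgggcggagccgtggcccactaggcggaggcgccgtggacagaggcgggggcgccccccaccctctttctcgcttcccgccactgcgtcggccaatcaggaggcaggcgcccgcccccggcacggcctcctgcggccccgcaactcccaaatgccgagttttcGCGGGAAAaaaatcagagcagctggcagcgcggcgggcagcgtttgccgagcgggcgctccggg

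The first 2 spellings were in 3 of the 15 promoters, of HELLS, DNMT1 and UHRF1, and in 1.15% of all 35116 promoters of the table. With all 4 spellings the count was 5 of 15, a CDCA7 promoter and another of UHRF1 being the additions, against 3.31% of all promoters. The wider spellings were added after these promoters had been read, and some of the 15 windows overlap, so this contrast is not independent. Counted from the start, the matches began at -76 and -8 in HELLS, at -65 in CDCA7 and at -2 in DNMT1. In UHRF1 a match began at -14 in the first promoter and at -160 in the second, and the last of the 3 had none. Promoters of CDCA7L, ZBTB24, DNMT3A and DNMT3B held none of these letters in their windows. The only DNMT3B window, chr20:32779602-32779901, lies inside the gene, which begins at 32762385, so the start at that end was not searched. All 3 UHRF1 windows also lie inside their gene, which begins at 4903080. NF-Y boxes, CCAAT, were in 4 of the 15, of HELLS, UHRF1 and DNMT3B (34.6% of all promoters), and SP boxes, GGGCGG, in 11 of the 15 (45.0%, both strands throughout). The cell cycle element spelled TTTGAA was in 1 of the 15 promoters, of DNMT3A (15.2%), and the TCF/LEF motif spelled CTTTGAT was in none of the 15 (2.62%). No E2F match overlapped a match of another motif. CpG counts ranged from 18 to 46 in 14 of the 15 windows, against a median of 14 over all promoters, and the DNMT3B window held 3. These matches describe letters in a window and not binding.

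**Figure D1:**
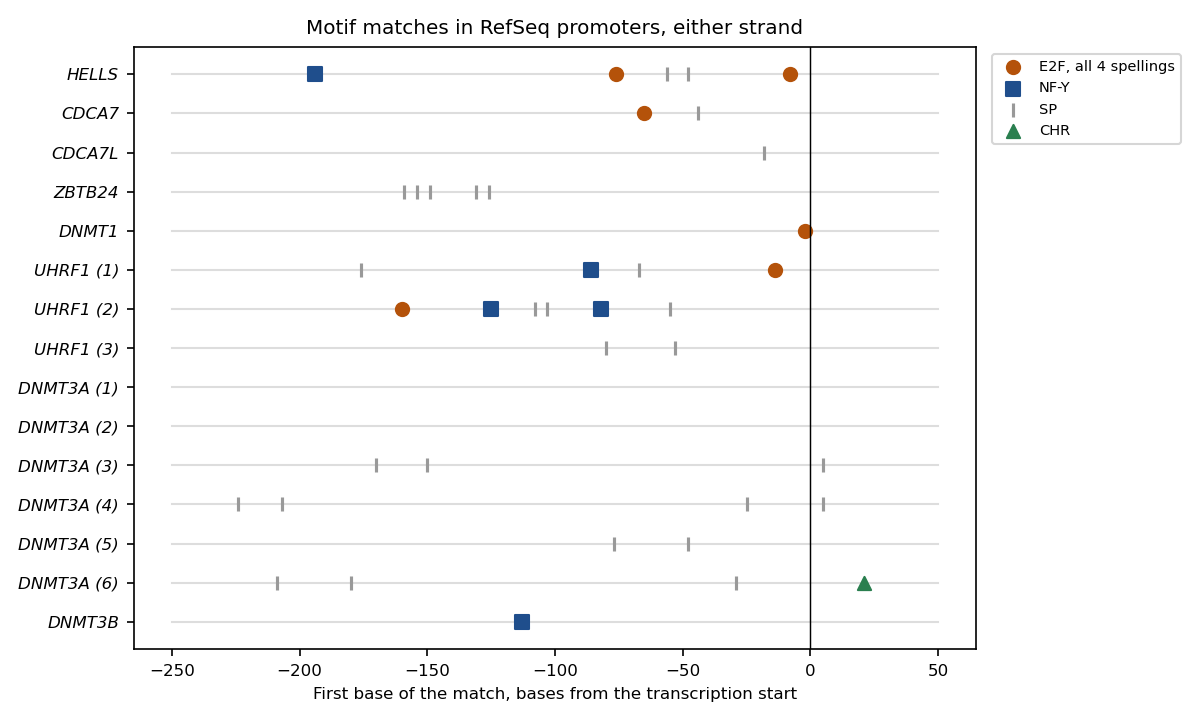
Motif matches in the 15 RefSeq promoters of the 8 genes, with the first base of each match in bases from the transcription start (x) and 1 line per promoter (y); promoters of a gene with several are numbered along the direction of transcription. E2F matches, all 4 spellings, lie in HELLS, CDCA7, DNMT1 and the first 2 promoters of UHRF1.

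Within groups, the arrays correlated at r = 0.993 or higher over all probesets, and array medians lay between 4.68 and 4.77 in log2 units, as are all levels below. CTNNB1 itself, the target of the siRNA, checked the labels of the knockdown. It was 10.22, 10.26 and 10.19 on control siRNA and 7.35, 6.90 and 7.25 on CTNNB1 siRNA, an 8.34-fold fall (log2 fold change -3.06, SE 0.12, adjusted p = 0.000495 from limma). All 8 squamous epithelial markers measured, such as KRT5 and CDH1, were above the array median on all arrays of HSC-3 cells, and 7 of 8 on those of CAL27, PKP1 being the exception. Of 17 markers of other cell types, 2, COL1A1 and HBA1, were above the median on all arrays of every HSC-3 group. On DMSO, CAL27 cells also had CD14 and CDH5 above it, and the summed level of the 17 markers was 64.4 to 65.3 on DMSO and 60.6 to 63.2 on ICG-001 in that line. Their part in the results of CAL27 was not tested.

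In HSC-3 cells, ICG-001 lowered 7 of the 8 genes, and DNMT3A alone did not pass the test. CDCA7 fell 3.30-fold, and HELLS and UHRF1 fell 2.99-fold each. DNMT1 fell 1.99-fold, CDCA7L 1.77-fold, DNMT3B 1.504-fold and ZBTB24 1.40-fold. DNMT3B entered the test through its DMSO arrays alone, so its call is a description. The counts over the 8 genes include it and are also given without it. They also include HELLS and CDCA7, which the study had reported as lowered by ICG-001 on these arrays. All counts over the 8 genes are therefore descriptions. A gene is said to have fallen or risen where limma gave an adjusted p no larger than 0.05, and 23.6% of the 13493 genes tested were lower and 24.2% higher by this rule. At the stricter signature thresholds that the study used, adjusted p ≤ 0.01 with fold ≥ 1.5, 6 of the 8 were lower, against 8% of tested genes. Without DNMT3B, 6 of 7 genes were lower and 5 of 7 met the signature thresholds. The median log2 fold change of the 8 genes was -0.91 (-0.99 without DNMT3B), and that of all genes tested was 0.00081. The test cannot tell fewer cells that carry a transcript from less of the transcript per cell.

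**Figure D2:**
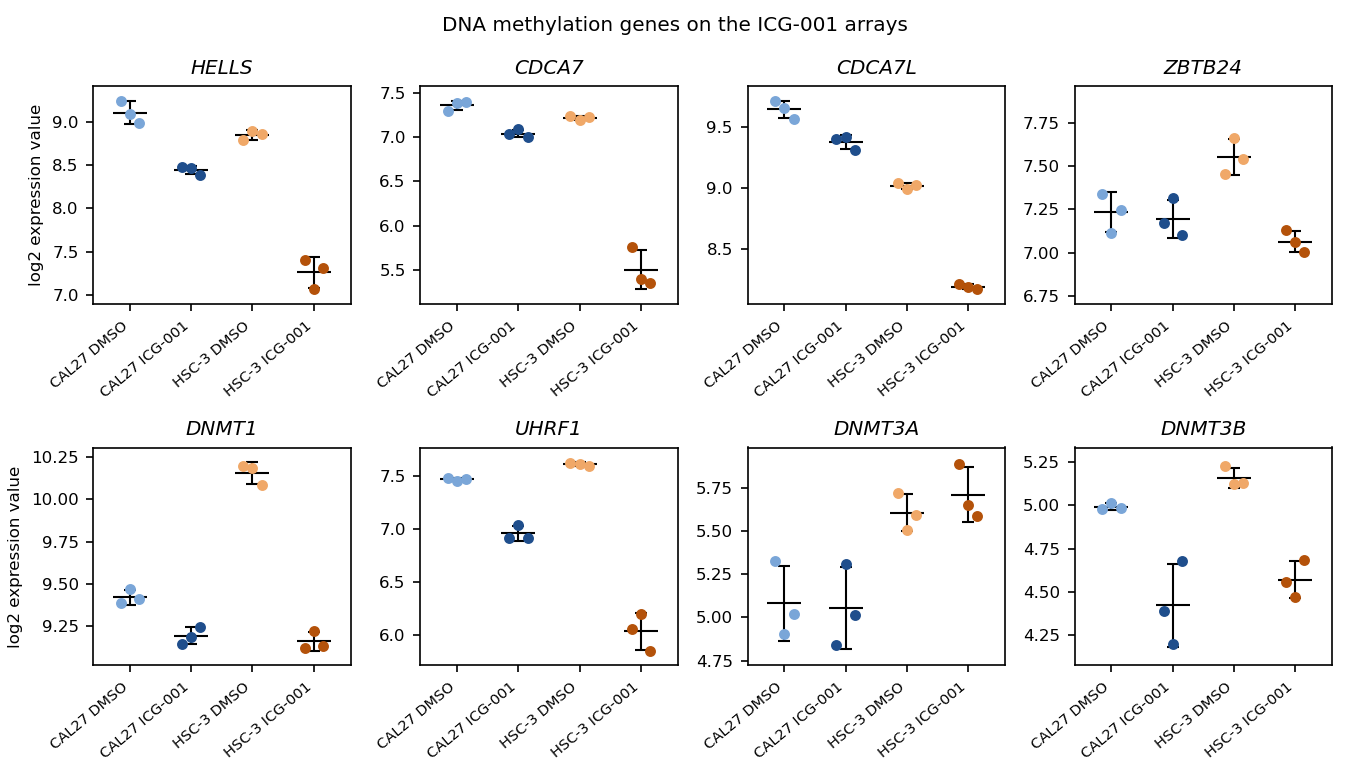
Log2 expression values of the 8 genes (y, each gene on its own axis) on the 12 ICG-001 arrays by group (x); points are arrays, bars the mean and SD of 3. HELLS, CDCA7 and UHRF1 on ICG-001 in HSC-3 cells lie below all other groups, and DNMT3A differs by line but not by treatment beyond its spread.

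HELLS, the remodeler, was 8.78, 8.89 and 8.86 on the DMSO arrays of HSC-3 cells and 7.41, 7.07 and 7.32 on the ICG-001 arrays. The groups lay far apart, with more spread on ICG-001 (8.85 ± 0.055 against 7.26 ± 0.18, SD, n = 3). The fall was 2.99-fold (log2 fold change -1.58, 95% CI -1.83 to -1.34, adjusted p = 8.46e-05), and 41 of the 13493 genes tested fell further. In CAL27 cells HELLS was 9.24, 9.09 and 8.99 on DMSO and 8.48, 8.47 and 8.39 on ICG-001, again without overlap. It fell 1.58-fold there (log2 fold change -0.66, 95% CI -0.88 to -0.44, adjusted p = 0.00512), which met the signature thresholds. It no longer met them when any of the 6 arrays was left out, although it stayed below an adjusted p of 0.05 in each case. The order of its levels was CAL27 on DMSO, HSC-3 on DMSO, CAL27 on ICG-001 and HSC-3 on ICG-001, and the narrowest gap was between the lines on DMSO, 8.99 in CAL27 against 8.89 in HSC-3.

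CDCA7, the activator of HELLS, had the largest fall of the 8 genes in HSC-3 cells. Its values were 7.24, 7.20 and 7.23 on DMSO and 5.75, 5.40 and 5.35 on ICG-001. Replicate 1 on ICG-001 stood above the other two, and all 3 were far below DMSO. The fall was 3.30-fold (log2 fold change -1.72, 95% CI -2.00 to -1.45, adjusted p = 9.32e-05), with 27 genes falling further. In CAL27 cells the values were 7.30, 7.39 and 7.40 on DMSO and 7.03, 7.09 and 7.01 on ICG-001, a small step with no overlap. The log2 fold change was -0.32 (95% CI -0.51 to -0.13, adjusted p = 0.0453). This call rests on all 6 arrays, since leaving out any of them gave an adjusted p of 0.0542 to 0.153.

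CDCA7L, the paralog that binds MYC, was 9.04, 8.99 and 9.03 on DMSO in HSC-3 cells and 8.22, 8.19 and 8.18 on ICG-001. The arrays of each group were nearly alike, and the groups did not overlap. The log2 fold change was -0.83 (95% CI -0.98 to -0.68, adjusted p = 0.000135). In CAL27 cells it was 9.71, 9.65 and 9.57 on DMSO and 9.40, 9.42 and 9.31 on ICG-001. The groups were apart, but the change of -0.27 (95% CI -0.47 to -0.068) did not pass the test (adjusted p = 0.0893). It passed with a trended and robust prior (0.0175), in a fit over 12 arrays (0.018) and with array weights (0.0487).

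The within-array difference of CDCA7 and CDCA7L changed with ICG-001 by -0.48 over both lines, by -0.90 in HSC-3 and -0.053 in CAL27 (exact permutation within lines, two-sided, p = 0.025, adjusted over 3 paralog pairs 0.025). On HSC-3 arrays this difference was -1.80 on all 3 DMSO arrays and -2.46, -2.80 and -2.83 on ICG-001, while the CAL27 arrays overlapped. Without replicate 3 of CAL27 on DMSO, the exact p was 0.055.

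ZBTB24, the activator of CDCA7, moved less. In HSC-3 cells it was 7.46, 7.66 and 7.54 on DMSO and 7.13, 7.06 and 7.003 on ICG-001. The groups did not overlap, and the log2 fold change was -0.49 (95% CI -0.68 to -0.29, adjusted p = 0.00301), below the fold of the signature. In CAL27 cells the arrays of both groups were mixed, from 7.11 to 7.34 on DMSO and from 7.10 to 7.32 on ICG-001 (log2 fold change -0.039, 95% CI -0.27 to 0.20, adjusted p = 0.84).

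Of the maintenance pair, UHRF1 fell as far as HELLS and DNMT1 fell less. UHRF1 in HSC-3 cells was 7.63, 7.62 and 7.59 on DMSO and 6.05, 6.19 and 5.85 on ICG-001. The DMSO arrays were nearly alike and all far above ICG-001 (2.99-fold, log2 fold change -1.58, 95% CI -1.82 to -1.34, adjusted p = 7.71e-05). In CAL27 cells it was 7.48, 7.45 and 7.47 on DMSO and 6.92, 7.04 and 6.92 on ICG-001. It fell 1.43-fold there (log2 fold change -0.51, 95% CI -0.70 to -0.32, adjusted p = 0.00798), short of the 1.5-fold of the signature.

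DNMT1 in HSC-3 cells was 10.20, 10.19 and 10.08 on DMSO and 9.12, 9.22 and 9.14 on ICG-001 (log2 fold change -0.99, 95% CI -1.17 to -0.82, adjusted p = 0.000115). In CAL27 cells it was 9.38, 9.47 and 9.41 on DMSO and 9.15, 9.19 and 9.25 on ICG-001. Both pairs of groups were apart, but in CAL27 the change of -0.23 (95% CI -0.42 to -0.037) did not pass the test (adjusted p = 0.122). The CAL27 change passed with the trended and robust prior (0.0287) and in the fit over 12 arrays (0.0415). The ICG-001 groups of the lines, 9.16 ± 0.056 in HSC-3 and 9.19 ± 0.051 in CAL27 (SD, n = 3), lay within each other's spread, while their DMSO groups did not.

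UHRF1 was also set against UHRF2, its paralog, which has the same domains and is known not to replace it in maintenance. The within-array difference of UHRF1 and UHRF2 changed by -0.93 over both lines, by -1.31 in HSC-3 and -0.55 in CAL27 (exact permutation within lines, two-sided, p = 0.005, the smallest the 400 regroupings can give, adjusted 0.015). UHRF2 itself changed by -0.27 in HSC-3 (adjusted p = 0.0342), and its value in CAL27 was 0.035 (adjusted p = 0.869).

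DNMT3B, of the de novo pair, in HSC-3 cells was 5.23, 5.12 and 5.13 on DMSO and 4.56, 4.47 and 4.68 on ICG-001. The groups did not overlap (log2 fold change -0.59, 95% CI -0.79 to -0.39, adjusted p = 0.00142). Its fold of 1.504 was just inside the signature threshold, and it fell below it without replicate 1 of DMSO (log2 fold change -0.55), without replicate 1 of ICG-001 (-0.58) and without replicate 2 of ICG-001 (-0.54). In CAL27 cells it was 4.98, 5.02 and 4.98 on DMSO and 4.39, 4.20 and 4.68 on ICG-001, with wide spread on ICG-001 (log2 fold change -0.57, 95% CI -0.86 to -0.28, adjusted p = 0.0264). That call was kept without replicate 3 of ICG-001 and was lost without each of the other 5 arrays (adjusted p 0.0635 to 0.0819). All 6 DMSO arrays were above and all 6 ICG-001 arrays below the array median, so DNMT3B passed the intensity filter through the DMSO arrays. With no filter, and thus with all 23786 probesets tested, the adjusted p of DNMT3B was 0.00244 in HSC-3 and 0.0429 in CAL27.

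DNMT3A did not pass the test in either line. In HSC-3 cells it was 5.72, 5.51 and 5.59 on DMSO and 5.89, 5.65 and 5.59 on ICG-001. In CAL27 cells it was 5.32, 4.90 and 5.02 on DMSO and 4.84, 5.31 and 5.01 on ICG-001. The groups overlapped in both lines, with log2 fold changes of 0.10 (95% CI -0.15 to 0.35, adjusted p = 0.46) and -0.027 (95% CI -0.38 to 0.32, adjusted p = 0.929). The within-array difference of DNMT3B and DNMT3A changed by -0.62 over both lines, by -0.69 in HSC-3 and -0.54 in CAL27 (exact permutation within lines, two-sided, p = 0.01, adjusted 0.015). That test used no filter, but one of its terms was below the array median on all ICG-001 arrays, so the size of the difference is a description.

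Across the 8 genes in CAL27 cells, 4 were lower, HELLS, UHRF1, DNMT3B and CDCA7, against 5.9% of the 13493 genes tested (5.33% were higher), and 1, HELLS, met the signature thresholds, against 1.72%. Without DNMT3B, 3 of 7 were lower. All 8 log2 fold changes were below 0, with a median of -0.29 (-0.27 without DNMT3B), where the median of all genes tested was 0.0044. The count of lower genes was 6 with the trended and robust prior and in the fit over 12 arrays, where CDCA7L and DNMT1 were added, and 5 with array weights. It was 3, CDCA7 being lost, with a replicate block or with no intensity filter. With 1 array left out the count of lower genes was 3 without replicate 3 of ICG-001 and 2 without each other array, HELLS and UHRF1 being the genes that stayed, and the count at the signature thresholds was 0.

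**Figure D3:**
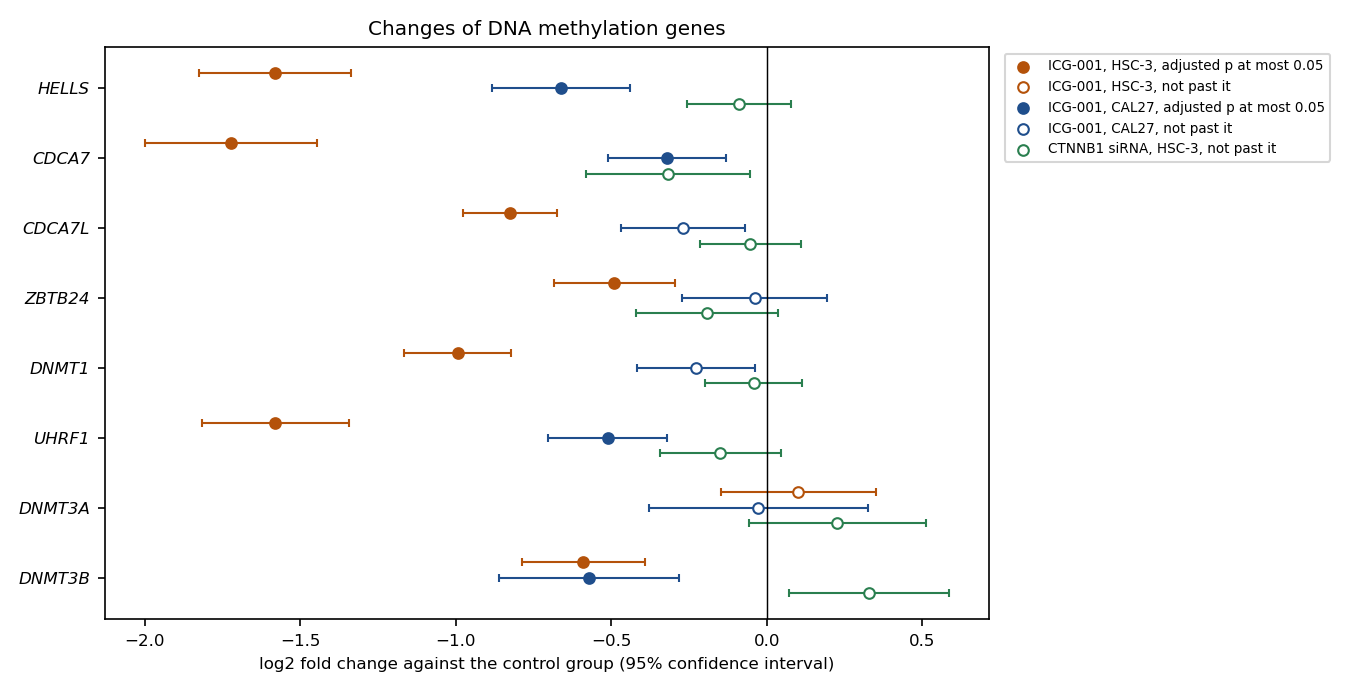
Log2 fold change of the 8 genes (x) with 95% confidence intervals for ICG-001 against DMSO in HSC-3 (orange) and CAL27 cells (blue) and for CTNNB1 siRNA against control siRNA (green); filled points passed an adjusted p of 0.05. For 6 genes, all but DNMT3A and DNMT3B, the responses of the lines differed by the interaction test. DNMT3B was below the array median on all ICG-001 arrays, which limits its comparison.

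The order of the levels over the 4 groups of the ICG-001 set differed by gene. CDCA7 ran as HELLS did, from CAL27 on DMSO down to HSC-3 on ICG-001, and no neighbours overlapped. CDCA7L was ordered by line first, with both CAL27 groups above both HSC-3 groups and no overlap. UHRF1 was highest in HSC-3 on DMSO and lowest in HSC-3 on ICG-001, with the CAL27 groups between them and apart. DNMT1 had HSC-3 on DMSO on top, then CAL27 on DMSO, and the ICG-001 groups of both lines overlapped below. ZBTB24 had HSC-3 on DMSO on top, and the other 3 groups overlapped in a chain. DNMT3A was ordered by line, HSC-3 above CAL27, with overlap within each line. DNMT3B was ordered by treatment, with both DMSO groups above both ICG-001 groups, which overlapped each other.

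The response to ICG-001 was compared between the lines by an interaction term over the 12 arrays. For 6 of the 8 genes the response was more negative in HSC-3 cells, against 13.3% of genes tested. The same held for 34 of the 39 S phase genes described below. The difference, HSC-3 minus CAL27, was -1.40 for CDCA7 (95% CI -1.71 to -1.10, adjusted p = 4.01e-05), -1.07 for UHRF1 (-1.34 to -0.80, adjusted p = 0.000109) and -0.92 for HELLS (-1.22 to -0.62, adjusted p = 0.000647). It was -0.77 for DNMT1 (adjusted p = 0.000223), -0.56 for CDCA7L (adjusted p = 0.00142) and -0.45 for ZBTB24 (adjusted p = 0.0218). The difference for ZBTB24 was not past the threshold without replicate 2 of CAL27 on DMSO (adjusted p = 0.0552), replicate 2 of CAL27 on ICG-001 (0.0511), replicate 2 of HSC-3 on DMSO (0.0545) or replicate 3 of HSC-3 on ICG-001 (0.053). DNMT3B had a difference of -0.018 (95% CI -0.36 to 0.32, adjusted p = 0.945) and DNMT3A of 0.13 (95% CI -0.31 to 0.56, adjusted p = 0.67). Signal limits this comparison for DNMT3B, which was below the array median on all ICG-001 arrays of both lines.

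On DMSO, before any response, the lines differed in 5 of the 8 genes. DNMT1, DNMT3A and ZBTB24 were higher in HSC-3 cells, against 30.1% of genes tested, and CDCA7L and HELLS were lower, against 28.6%. These counts lie near the shares over all genes and are no result about the 8 genes as a group. The log2 difference, HSC-3 minus CAL27, was 0.73 for DNMT1 (adjusted p = 0.000164), 0.52 for DNMT3A (adjusted p = 0.00807) and -0.62 for CDCA7L (adjusted p = 0.000376), each without overlap of arrays. It was 0.32 for ZBTB24 (adjusted p = 0.024) and -0.26 for HELLS (adjusted p = 0.0444). The HELLS difference was past the threshold in the absence of replicate 3 of CAL27 but not of any of the other 5 arrays (adjusted p 0.0738 to 0.13), and the ZBTB24 difference was lost without replicates 2 or 3 of either line (adjusted p 0.0522 to 0.0872). CDCA7 (-0.14, adjusted p = 0.153), UHRF1 (0.14, adjusted p = 0.133) and DNMT3B (0.17, adjusted p = 0.102) did not pass the test. The interval of the DMSO difference ran from -0.32 to 0.039 for CDCA7, from -0.030 to 0.32 for UHRF1 and from -0.015 to 0.35 for DNMT3B.

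The siRNA arrays asked whether less CTNNB1 transcript moves the same genes in HSC-3 cells. At the adjusted threshold, 0 of the 8 genes were higher or lower, where 0.00789% and 0.0789% of the 12682 genes tested were. This comparison made 11 calls in all genes. At an unadjusted p under 0.05, 2 of the 8 and 1172 of all genes stood, and with a trended and robust prior, which called 140 genes, the count of the 8 was still 0. HELLS was 8.45, 8.55 and 8.47 on control siRNA and 8.47, 8.33 and 8.40 on CTNNB1 siRNA, which overlapped (log2 fold change -0.090, 95% CI -0.26 to 0.078, adjusted p = 0.741). UHRF1 had a log2 fold change of -0.15 (95% CI -0.34 to 0.045, adjusted p = 0.632) and DNMT1 of -0.042 (95% CI -0.20 to 0.11, adjusted p = 0.884). For these 3 genes the interval leaves out the changes seen with ICG-001 in HSC-3 cells, -1.58, -1.58 and -0.99. The same held for CDCA7 (-0.58 to -0.055 against -1.72) and CDCA7L (-0.22 to 0.11 against -0.83). It also held for ZBTB24 (-0.42 to 0.038 against -0.49) and DNMT3B (0.072 to 0.59 against -0.59). The sets were not tested against each other.

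The 2 genes with an unadjusted p under 0.05 were CDCA7 and DNMT3B. CDCA7 was 6.47, 6.34 and 6.25 on control siRNA and 6.21, 5.85 and 6.05 on CTNNB1 siRNA, with no overlap but little space between (log2 fold change -0.32, 95% CI -0.58 to -0.055, adjusted p = 0.456). DNMT3B was 4.62, 4.81 and 4.40 on control siRNA and 4.93, 4.99 and 4.91 on CTNNB1 siRNA, close to the array median (log2 fold change 0.33, 95% CI 0.072 to 0.59, adjusted p = 0.44). CDCA7L (-0.053, adjusted p = 0.854), ZBTB24 (-0.19, adjusted p = 0.599) and DNMT3A (0.23, adjusted p = 0.616) had arrays of both groups that overlapped. None of the 3 paralog differences passed the exact permutation test on these arrays (p = 0.3, 0.6 and 0.6, where 3 against 3 arrays cannot go below 0.1).

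**Figure D4:**
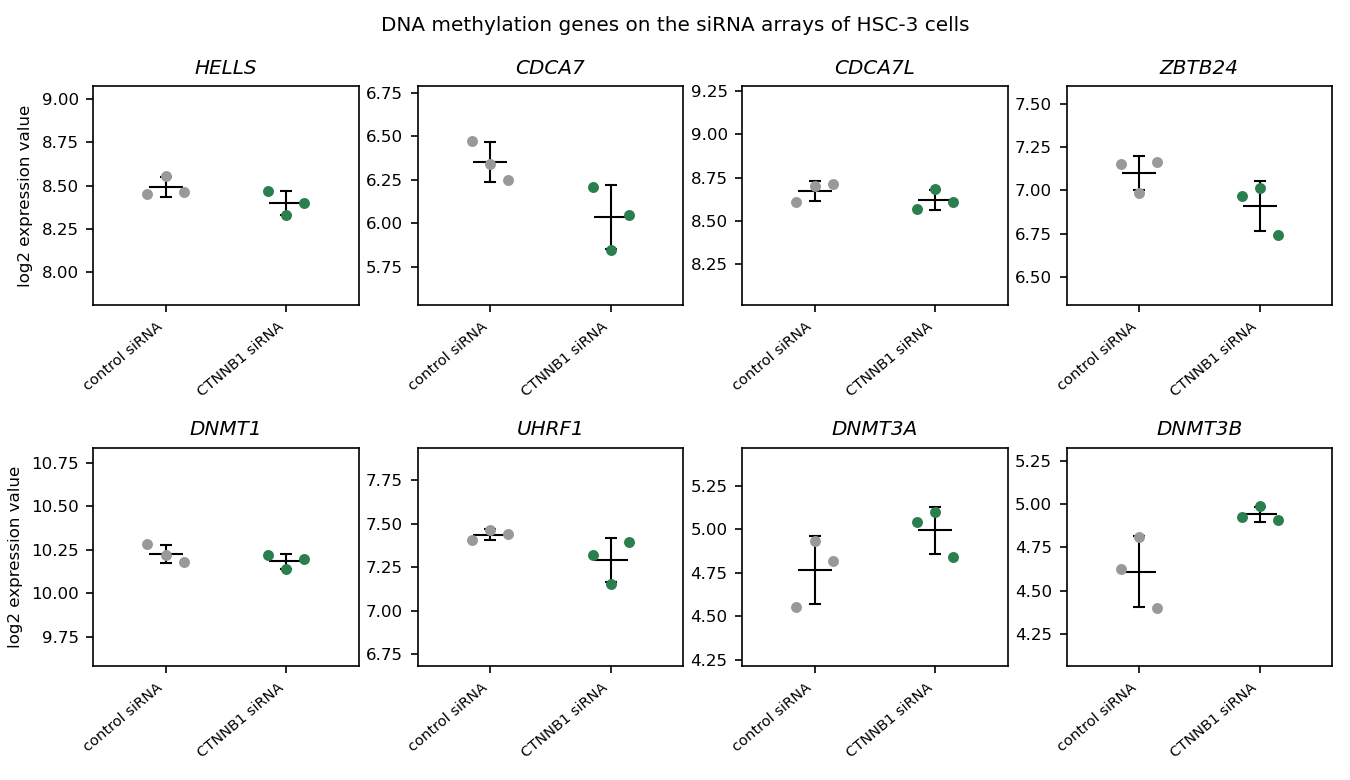
Log2 expression values of the 8 genes (y, each gene on its own axis spanning at least 1.2 units) on the 6 siRNA arrays of HSC-3 cells by group (x); points are arrays, bars the mean and SD of 3. The groups of CDCA7, UHRF1 and DNMT3B do not overlap, and none of the 8 genes passed the adjusted threshold.

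Over the 12 ICG-001 arrays, which share line and treatment, HELLS correlated with CDCA7 at r = 0.971, with UHRF1 at 0.952 and with CDCA7L at 0.899. DNMT1 correlated best with ZBTB24 (r = 0.865) and with HELLS at 0.521, and DNMT3A ran against HELLS (r = -0.50) and CDCA7L (r = -0.76). These values describe 4 groups of arrays and carry no test. Among all tested genes with a symbol, those with a pattern most like HELLS over these 12 arrays were TOP2A (r = 0.998), MKI67 (0.997), TPX2 (0.993), ANLN (0.993) and CENPW (0.992). TOP2A encodes the DNA topoisomerase of dividing cells, and MKI67 encodes Ki-67, the usual marker of proliferation. TOP2A fell by 1.24 in HSC-3 cells (adjusted p = 0.000143) and by 0.48 in CAL27 cells (adjusted p = 0.017), and MKI67 fell by 1.38 (adjusted p = 8.07e-05) and by 0.61 (adjusted p = 0.0048). For CDCA7 they were IFFO2 (0.993), PRPF4 (0.993), CHAF1B (0.993), MCM6 (0.992) and TPX2 (0.991), of which CHAF1B is a subunit of the histone chaperone of replication and MCM6 of the replicative helicase. MCM6 fell by 1.87 in HSC-3 cells (adjusted p = 5.71e-05) and by 0.41 in CAL27 cells (adjusted p = 0.0439).

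Genes of S phase moved with HELLS and its partners. In HSC-3 cells all 39 measured genes of the S phase list fell, against 23.6% of all genes tested. Their median log2 fold change was -0.91. The 8 genes described here had the same median, or -0.99 without DNMT3B. MCM6 (-1.87), TYMS (-1.86), the thymidylate synthase, and GINS2 (-1.83) fell further than HELLS. In CAL27 cells 18 of 39 fell and 0 rose (25 and 0 at an unadjusted p under 0.05), with a median of -0.32. Over all genes tested 5.9% were lower and 5.33% higher there. On CTNNB1 siRNA 0 of 39 passed the test (2 at an unadjusted p under 0.05, median -0.021). By the interaction test 34 of 39 responded more negatively in HSC-3 cells and 0 less so (median -0.56, and -0.66 for the 8 genes). The part of S phase in the values of HELLS, CDCA7 and UHRF1 was not tested.

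Partners of maintenance methylation also fell in HSC-3 cells, with 9 of 12 lower, 0 higher (0 at an unadjusted p under 0.05) and a median of -0.56. Over all genes tested 23.6% were lower and 24.2% higher. PCNA, the sliding clamp that holds DNMT1 at the fork (-1.005, adjusted p = 0.000178), and LIG1, the ligase of the lagging strand (-0.76, adjusted p = 0.000315), are also in the S phase list. SUV39H2, a methyltransferase for lysine 9 of histone H3 (-0.76, adjusted p = 0.000322), and CBX5, which encodes the heterochromatin protein HP1α (-0.52, adjusted p = 0.0012), are not. In CAL27 cells PCNA fell by 0.38 (adjusted p = 0.0454), and CBX5 rose by 0.43 (adjusted p = 0.0335). Partners of de novo methylation were lower for 6 of 11 and higher for 1 in HSC-3 cells (median -0.28). EZH2, the catalytic subunit of Polycomb repressive complex 2, fell by 1.10 (adjusted p = 7.34e-05) and NSD2, a methyltransferase for lysine 36 of histone H3, by 0.90 (adjusted p = 0.00013). Both fell in CAL27 cells as well, by 0.32 (adjusted p = 0.0471) and 0.50 (adjusted p = 0.0137), as did EED, a Polycomb subunit. Thus 3 of 11 were lower there, against 5.9% of all genes tested.

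Among 30 other SNF2 family remodelers tested, 10 fell and 5 rose in HSC-3, with a median of -0.045. Over all genes tested 23.6% were lower and 24.2% higher in HSC-3, so these counts are no result about the family. None of the 30 fell further than HELLS (-1.58, SE 0.10), but ERCC6L came close to it (-1.43, SE 0.16, adjusted p = 0.000576). Others that fell included RAD54L (-1.21, adjusted p = 0.000184) and RAD54B (-0.98, adjusted p = 0.000214), which act in homologous recombination, and TTF2 (-0.72, adjusted p = 0.00049). CHD2 rose by 0.59 (adjusted p = 0.000527). In CAL27 cells RAD54B (-0.47, adjusted p = 0.0246) and TTF2 (-0.36, adjusted p = 0.0383) were lower and 0 of the 30 were higher (1 at an unadjusted p under 0.05). Over all genes tested 5.9% were lower and 5.33% higher there.

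Genes for the supply and removal of the mark were counted next. Over all genes tested, 24.2% rose and 23.6% fell in HSC-3 (5.33% and 5.9% in CAL27), and a share near these is no result about a list. Of 12 genes of the methyl donor cycle, 7 fell and 1 rose in HSC-3 (median -0.26), among them SMS (-0.84, adjusted p = 0.000674), the spermine synthase, MTAP (-0.76, adjusted p = 0.000587), which salvages methylthioadenosine, and MTR (-0.62, adjusted p = 0.00104), the methionine synthase. AHCYL2 rose by 0.64 (adjusted p = 0.000388). Of 10 genes of DNA demethylation and repair, 4 rose and 3 fell (median -0.034). UNG, the uracil glycosylase, fell by 1.82 (adjusted p = 0.000159), TDG, the thymine glycosylase that removes oxidized methylcytosine, by 0.52 (adjusted p = 0.000856), while IDH1, an isocitrate dehydrogenase that makes the cosubstrate of TET enzymes, rose by 1.14 (adjusted p = 8.76e-05) and GADD45A by 0.63 (adjusted p = 0.000511). In CAL27 cells UNG alone of these 10 passed the test (-0.46, adjusted p = 0.0181), and 0 of the 12 donor genes did (3 at an unadjusted p under 0.05). Of 7 readers of methylated CpG, 2 rose, ZBTB33 (0.50, adjusted p = 0.00136) and ZBTB4 (0.27, adjusted p = 0.0166), and MBD2 fell by 0.32 (adjusted p = 0.0233). MBD2 also fell in CAL27 cells, by 0.37 (adjusted p = 0.0443), where ZBTB38 rose by 0.49 (adjusted p = 0.0129).

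MYC itself, which CDCA7L binds, rose by 0.32 in HSC-3 cells (adjusted p = 0.00981) and had a log2 fold change of 0.27 in CAL27 cells (adjusted p = 0.0749). Of 10 genes of the MYC network, 4 rose and 2 fell in HSC-3 cells (median 0.13), against 24.2% and 23.6% of all genes tested. MXD1, which competes with MYC for MAX, rose by 0.99 (adjusted p = 0.000107) and by 0.74 in CAL27 cells (adjusted p = 0.00393), where it was the only gene of the 10 to pass, and MXI1 rose by 1.16 in HSC-3 cells (adjusted p = 0.000959).

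Genes that methylation keeps silent were looked at last. Of 35 germline genes, 28 had a probeset and 5 passed the intensity filter on the ICG-001 arrays, and 0 of the 5 changed in HSC-3 cells (0 at an unadjusted p under 0.05, median -0.11) or in CAL27 cells (2 at an unadjusted p under 0.05, median -0.14). Passing the filter took a value above the array median, so these 5 need not be silent. Whether silent genes were released was not tested. In HSC-3, NLRP2 changed by -0.18 (adjusted p = 0.29) and MAGEA1 by -0.11 (adjusted p = 0.541). Of 10 imprinted genes tested, 3 were lower in HSC-3 cells, PHLDA2 (-0.36, adjusted p = 0.00524), MEST (-0.37, adjusted p = 0.0122) and H19 (-0.39, adjusted p = 0.0292), with a median of -0.15. This count is near the 23.6% of all genes tested that were lower there, so it is no result about imprinted genes. In CAL27 cells 2 of the imprinted genes were lower and 1, GRB10, was higher (0.65, adjusted p = 0.0315), against 5.9% and 5.33% of all genes tested. On CTNNB1 siRNA, limma called 0 genes of any of these lists, with 0 to 2 genes per list at an unadjusted p under 0.05. Of the 8 squamous markers, 3 rose and 3 fell in HSC-3, led by DSG3 (1.29, adjusted p = 4.66e-05) and KRT14 (-1.04, adjusted p = 0.000101), and KRT14 alone fell in CAL27 (-0.96, adjusted p = 0.00404). Of 4 markers of other cell types tested, 0 changed in HSC-3 (0 at an unadjusted p under 0.05), and in CAL27 CD14 (-1.29, adjusted p = 0.00169) and CDH5 (-0.87, adjusted p = 0.00303) fell. DNA methylation itself was not measured.

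**Figure D5:**
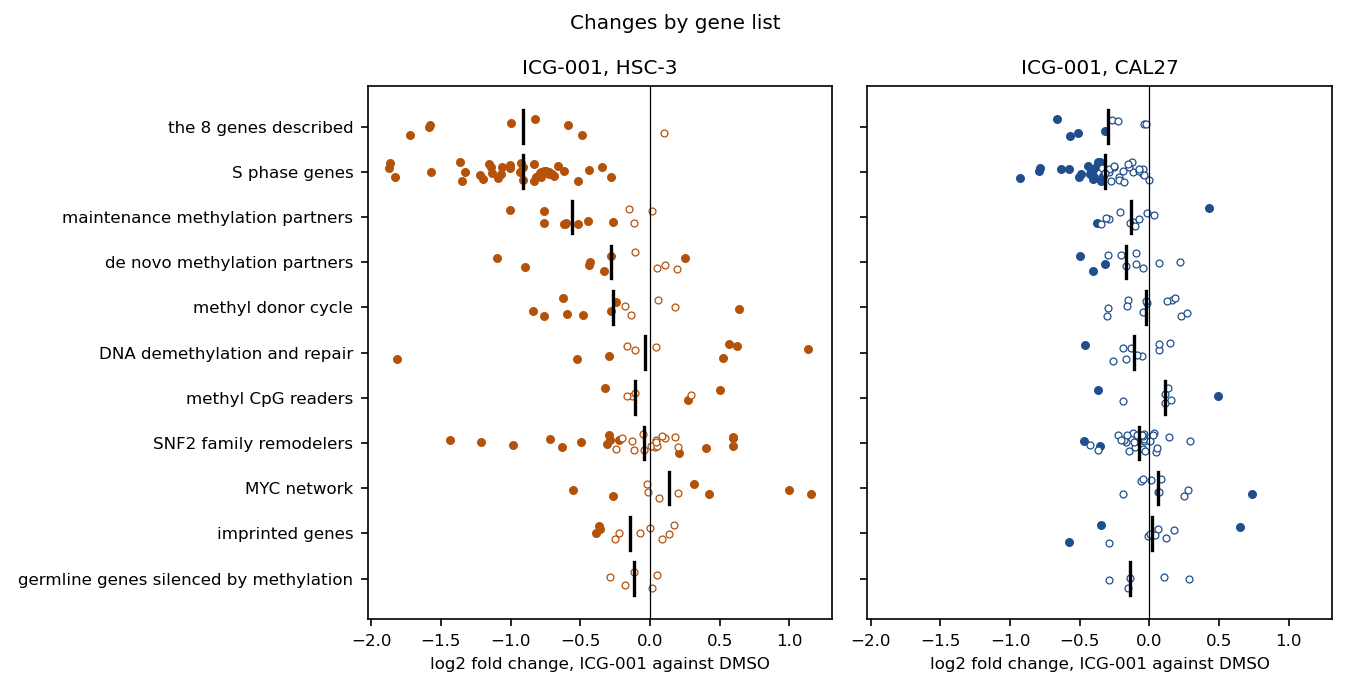
Log2 fold change with ICG-001 (x) of the tested genes of each list (y) in HSC-3 (left) and CAL27 cells (right); points are genes, filled where the adjusted p was at most 0.05, and black lines are medians of the list. The medians of S phase genes, -0.91 and -0.32, lie close to those of the 8 genes, -0.91 and -0.29 (-0.99 and -0.27 without DNMT3B).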

How the data were processed

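The data were 18 arrays (Affymetrix Human Gene 2.0 ST), 3 per group, with the 6 groups taken from the sample titles. The deposited log2 values were made by the authors with RMA, the robust multi-array average, a method that removes background, equalizes array distributions and summarizes probes, in affy (version 1.36.1) under R 2.15.1, with 1 probeset per Entrez gene. Further arrays normalized with the siRNA arrays were not used here. The number of arrays limits the precision.

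In R 4.3.3, limma 3.58.1 fitted linear models to all 23786 probesets, by line, for the knockdown, and for the difference between lines. Benjamini-Hochberg adjustment covered the genes that exceeded the median of 1 or more arrays in their set, 13493 (ICG-001) and 12682 (siRNA). Steps were tested on simulated data. Likeness was Pearson's r over 12 arrays. Named genes were the 8, CTNNB1, the 5 most like HELLS and CDCA7, and up to 4 per list with the smallest adjusted p in HSC-3 cells. GINS2, TYMS, ERCC6L, EED, GRB10, CD14, CDH5 and a few others named in counts were added after their values were seen. The 8 genes, the 12 lists with 233 entries and the tests were chosen with earlier results of these data known. Alternatives were a replicate block, leaving out each array, other filters, normalizations and priors, array weights and a fit over 12 arrays. Promoters came from RefSeq (GRCh38.p14).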

Additional observations from a re-analysis of the deposited data

Results flagged for a closer look

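The response to ICG-001 differed between HSC-3 and CAL27 cells by the interaction test for 6 of the 8 genes, and each of these differences was toward a larger fall in HSC-3 cells. On the log2 scale the difference was -0.92 for HELLS, -1.40 for CDCA7 and -1.07 for UHRF1. It was -0.77 for DNMT1, -0.56 for CDCA7L and -0.45 for ZBTB24. All 3 arrays of HSC-3 on ICG-001 were below all 3 on DMSO for each of these 6 genes. In CAL27 cells the same held for HELLS, CDCA7, CDCA7L, DNMT1 and UHRF1, and the ZBTB24 arrays overlapped. Separate groups within a line therefore do not mark a difference between the lines. The share of all genes tested with a more negative response in HSC-3 by the interaction test was 13.3%. Of the 39 S phase genes tested, 34 had such a difference as well, so it is not particular to these 6 genes. Groups of 3 arrays were not searched for arrays that stand apart.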

How the results depend on the processing

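Of the results for single genes among the 8 under alternatives, 548 kept their direction and side of the threshold, 30 no longer passed it, 5 newly passed it and 9 turned direction. All results of single genes for ICG-001 in HSC-3 cells kept both. In CAL27 cells the count at the signature thresholds was 0 with a replicate block and without any 1 array, and the count of lower genes, 4, ranged from 2 to 3 without 1 array and was 6 with a trended and robust prior and in a fit over 12 arrays. The 5 results that newly passed were CDCA7L in CAL27 under these 2 settings and array weights, and DNMT1 there under these 2. All genes called in CAL27 were 2390 with a trended and robust prior, 2513 in a fit over 12 arrays, and 715 to 1039 without 1 array, against 1515. For CTNNB1 siRNA they were 1 with the replicate block, 2 with no intensity filter, 7 with equal array medians, 140 with the trended prior and 1 without any 1 array, against 11. Between the lines on DMSO, the lower genes of the 8 were 1 with the replicate block, with no filter and with equal medians, and 1 to 2 without 1 array, and the higher genes at the signature thresholds were 2 with array weights and 1 to 2 without 1 array. Replicate numbers did not clearly pair the arrays (same-number correlations from -0.04 to 0.18). For ICG-001 in CAL27, replicates 1 and 3 matched best with their own number (0.18 and 0.11), so pairing was not excluded there. With the block, CDCA7 in CAL27 (adjusted p = 0.0811) and the line differences of HELLS (0.0861) and ZBTB24 (0.0586) were lost. Changes that turned direction were near 0: DNMT3A in CAL27 was 0.052 with array weights and between -0.16 and 0.094 without 1 array, ZBTB24 there between -0.099 and 0.015, and the line difference in response of DNMT3B was 0.0086 with cyclic loess and between -0.13 and 0.11 without 1 array. The paralog differences without 1 array ranged from -0.53 to -0.44 for CDCA7 minus CDCA7L on ICG-001 and, on siRNA, from -0.029 to 0.21 for DNMT3B minus DNMT3A and from -0.13 to 0.0042 for UHRF1 minus UHRF2. The causes were not tested. Signal limits DNMT3B, which was below the array median on all 6 ICG-001 arrays.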
